A study of Homo sapiens with 9 samples.

Results

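The AP-1 subunits FOS, FOSB, FOSL1, FOSL2, JUN, JUNB, JUND, ATF3 and BATF3 were followed across 3 groups of Kasumi-1 libraries, as 9 of the 59648 gene rows in the count files. They were taken by gene symbol. Kasumi-1 is a human acute myeloblastic leukemia cell line with the t(8;21) translocation, which joins RUNX1 to RUNX1T1 and so makes the fusion protein AML1-ETO (AE). All 3 groups were infected with lentiviruses expressing an shRNA and then selected with puromycin at 1 µg/mL, with 48 h for each step, and carry the label day 4. The first group received control shRNA (replicates 1 to 3), the second an shRNA against AE (1 to 3), and the third the shRNAs 538, 540 and 542 against LYL1, a basic helix-loop-helix factor of blood progenitors. The cells are 1 line, and the labels give neither the shRNA sequences nor whether the AE numbers mark different shRNAs. The LYL1 libraries carry 3 different shRNAs, so their spread includes that between shRNAs. For the control and AE knockdown libraries nothing in the labels names separate cultures, so that the p-values measure the spread between these libraries, which may be technical.

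AP-1 is a family of dimeric transcription factors built from basic leucine zipper proteins. JUN proteins pair with each other or with FOS proteins, whereas FOS proteins need a JUN partner to bind DNA. FOS, FOSB, JUN and JUNB are immediate early genes, induced within minutes by growth factor and mitogen-activated protein kinase signalling. ATF3 is induced by stress and often represses, and BATF3 lacks the transactivation domain of FOS and is known for its role in dendritic cells. In t(8;21) leukemia, AP-1 factors are known to share regulatory elements with AE and RUNX1.

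Library totals ran from 20103275 to 28039518 counts, and all 9 members passed the filter on low counts, with 14741 genes tested. RUNX1T1, which reads the fusion, lay at 52.6%, 63.0% and 40.5% of the control mean in AE knockdown replicates 1, 2 and 3. LYL1 lay at 49.5%, 60.5% and 27.0% of the control mean with shRNAs 538, 540 and 542. In AE knockdown replicates 1, 2 and 3 LYL1 lay at 161%, 123% and 106% of the control mean, and RUNX1 at 63.5%, 61% and 52.3%. With shRNAs 538, 540 and 542 RUNX1T1 lay at 84.6%, 92.8% and 121%, and RUNX1 at 102%, 93.9% and 141%. Between libraries of a group the biological coefficient of variation was 7.57% in the controls, 31.5% with AE knockdown and 20.9% with LYL1 knockdown. The summed level of 5 myeloblast genes, led by the granule enzyme MPO, was 18900 to 21900 CPM, the count relative to the scaled library total, in the controls, 17600 to 34000 with AE knockdown and 12600 to 17600 with LYL1 knockdown. Its part in the results was not tested. MPO alone averaged 19500, 26400 and 13800 CPM in the control, AE and LYL1 knockdown libraries, so the sum mainly reads MPO. Of that list CD34 was lowest in each group and went the other way. It averaged 11.8 CPM in the controls, 8.35 with AE knockdown and 28.4 with LYL1 knockdown. The summed markers of T, B, erythroid, epithelial, fibroblast and endothelial cells reached at most 16.8 CPM in any library, and MS4A1, CD3G and VWF were at 0 in every group. The endothelial sum held CDH5 and VWF only, without the listed PECAM1. The T cell sum itself was 3.99 to 5.95 CPM in the controls, 0.679 to 1.13 with AE knockdown and 1.99 to 5.33 with LYL1 knockdown.

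The promoters of 5 members are shown because their transcripts carry the differences described further on. FOS, FOSL2 and ATF3 were lower with AE knockdown, and JUN and JUND lay higher in the LYL1 knockdown libraries. The RefSeq table (GRCh38.p14) held 7 of the 9 members, without FOSL1 and BATF3. Each line gives the 250 bases before the first transcript start listed for the gene, 5′ to 3′ on the gene's strand. Counts per gene do not show which start was used in these cells. The windows are chr14:75278578-75278827 (plus strand) for FOS, chr2:28392608-28392857 (plus) for FOSL2 and chr1:212565157-212565406 (plus) for ATF3. Those of JUN and JUND are chr1:58784048-58784297 (minus) and chr19:18281623-18281872 (minus). Capitals mark every match, on either strand, to the AP-1, cyclic AMP response and RUNX motifs spelled out after the sequences.
FOS: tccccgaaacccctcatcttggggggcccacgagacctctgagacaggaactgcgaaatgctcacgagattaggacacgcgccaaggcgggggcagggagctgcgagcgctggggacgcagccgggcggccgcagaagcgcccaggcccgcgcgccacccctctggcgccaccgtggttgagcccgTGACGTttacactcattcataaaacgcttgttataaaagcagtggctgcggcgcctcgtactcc
FOSL2: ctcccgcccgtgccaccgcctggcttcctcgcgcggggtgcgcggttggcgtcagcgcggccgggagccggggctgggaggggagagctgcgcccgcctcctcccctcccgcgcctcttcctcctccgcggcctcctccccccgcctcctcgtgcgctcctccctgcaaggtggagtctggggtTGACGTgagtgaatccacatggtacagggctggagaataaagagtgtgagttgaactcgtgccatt
ATF3: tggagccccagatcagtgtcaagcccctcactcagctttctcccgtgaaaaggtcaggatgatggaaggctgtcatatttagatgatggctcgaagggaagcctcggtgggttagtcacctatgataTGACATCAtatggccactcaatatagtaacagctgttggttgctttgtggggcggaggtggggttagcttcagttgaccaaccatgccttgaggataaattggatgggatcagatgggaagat
JUN: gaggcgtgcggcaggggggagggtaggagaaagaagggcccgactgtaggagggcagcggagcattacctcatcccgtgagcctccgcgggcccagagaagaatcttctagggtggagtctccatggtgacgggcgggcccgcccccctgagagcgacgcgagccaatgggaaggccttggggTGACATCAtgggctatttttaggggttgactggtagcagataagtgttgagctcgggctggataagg
JUND: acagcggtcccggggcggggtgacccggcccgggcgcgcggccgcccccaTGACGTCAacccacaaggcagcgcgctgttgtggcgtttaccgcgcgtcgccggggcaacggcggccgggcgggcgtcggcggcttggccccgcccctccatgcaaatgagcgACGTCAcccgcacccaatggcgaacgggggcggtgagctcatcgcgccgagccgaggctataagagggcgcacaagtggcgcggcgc

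TGACTCA is the AP-1 site, TGACGTCA the cyclic AMP response element and TGACATCA the variant of it known from the JUN promoter. TGTGGT is the RUNX site. TGACGT, the first 6 bases of the cyclic AMP response element and so part of every match to it, was added to the search after the sequences had been read. JUN and ATF3 each held 1 TGACATCA, starting 67 and 123 bases before the transcript start. That motif was present in 2.37% of 35116 promoter windows of the same length. JUND held 1 TGACGTCA 200 bases before its start (1.65% of windows), and a further TGACGT on the opposite strand 87 bases before it. FOS and FOSL2 each held 1 TGACGT, at 64 and 66 bases, and FOSB held it at 60 bases, against 7.10% of all windows. The AP-1 site (4.20% of windows), the RUNX site (11.0%) and the CArG box, bound by SRF (1.16%), matched none of the 7 windows. Bases farther upstream and other spellings of the RUNX site were not searched. E-boxes, CANNTG, which LYL1 dimers are known to bind, were found in FOSB, FOSL2, JUND and ATF3, and in 61.8% of all windows. They are not capitalised. A match describes letters only, and the JUNB window held none of these motifs.

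The members spanned a wide range of levels. On the scale of CPM per kilobase of exon, which allows genes to be compared, the control order was JUND at 21.3 ± 1.78, JUNB at 14.4 ± 1.39, FOSL2 at 12.4 ± 0.862 and FOSL1 at 5.00 ± 0.847 (SD, n = 3). JUND is a largely constitutive JUN protein. ATF3 at 1.79, JUN at 0.707, FOS at 0.497, BATF3 at 0.483 and FOSB at 0.245 CPM per kilobase followed. The libraries of JUNB and FOSL2 overlapped in the controls, as did those of FOS and BATF3. JUND remained highest and JUNB next in the mean of each knockdown group, with 31.2 and 16.4 CPM per kilobase after AE knockdown and 42.4 and 13.9 after LYL1 knockdown. FOSL2 followed at 4.35 CPM per kilobase with AE knockdown and at 10.7 with LYL1 knockdown, below JUNB without overlap in the former. The prototype members FOS and JUN were scarce in these cells, read by 12 to 76 and 19 to 153 counts per library, and FOSL2 and FOSL1 supplied most FOS-family transcripts.

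**Figure D1:**
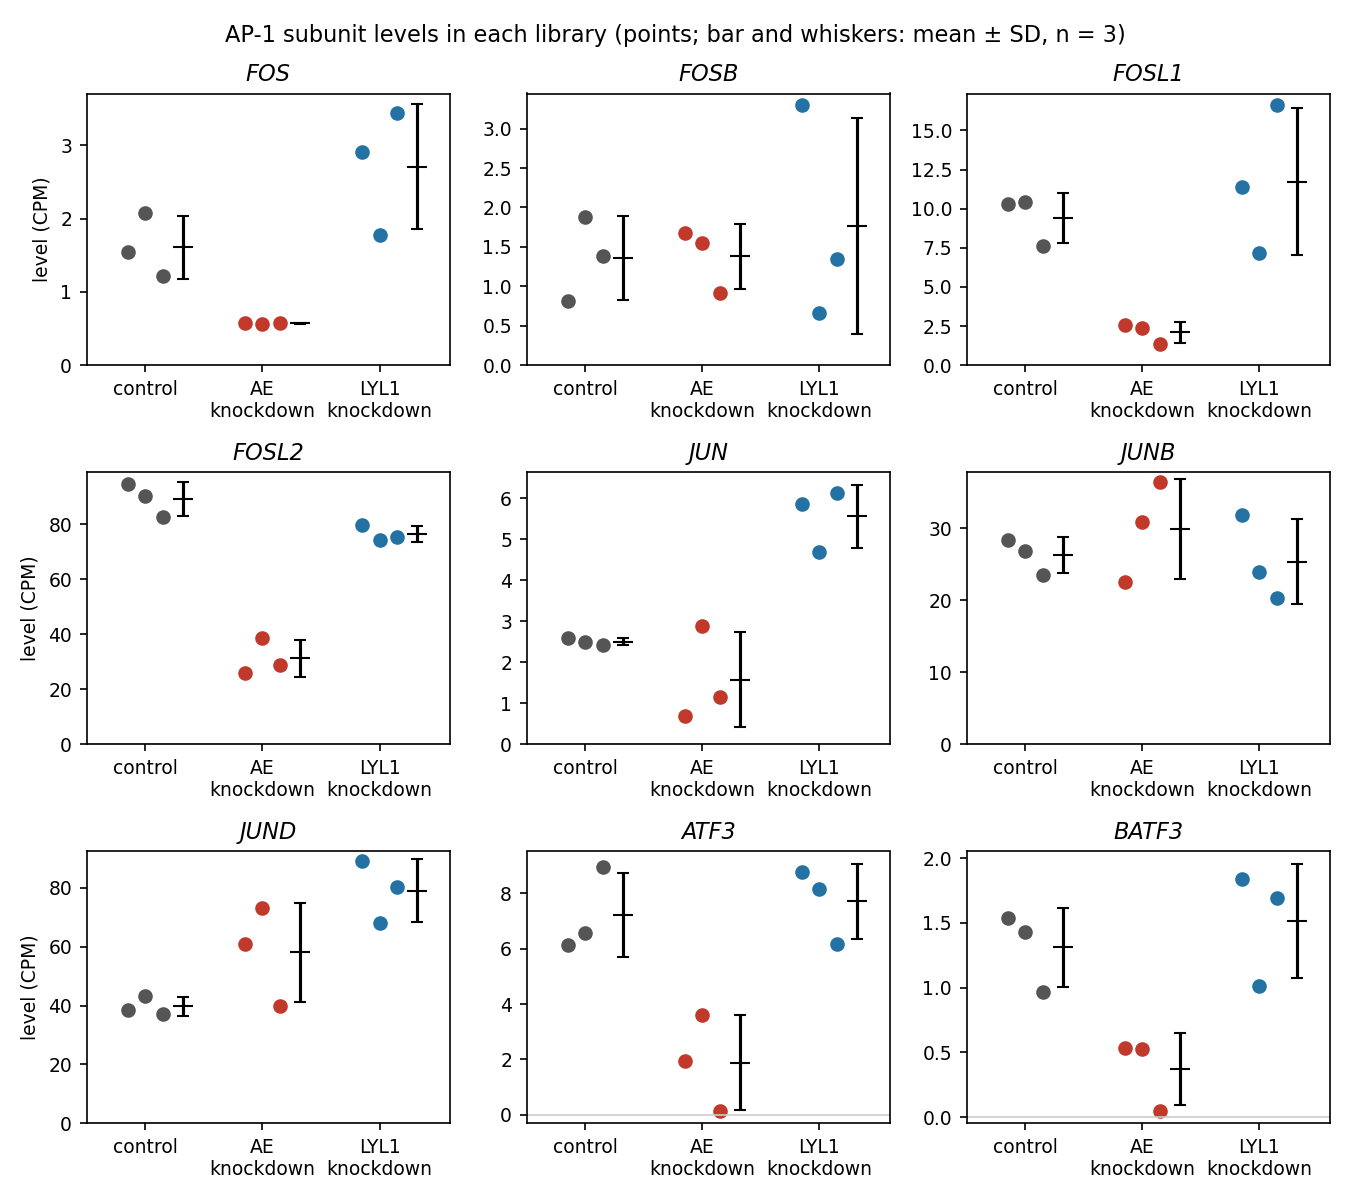
Level of each of the 9 subunits in CPM (linear axis, 1 panel a gene) in the 9 libraries, as points coloured by group in replicate order, with the group mean ± SD (n = 3) as bar and whiskers beside them. FOSL2, FOSL1, FOS, ATF3 and BATF3 show all 3 AE knockdown libraries below all 3 controls, and JUN and JUND show all 3 LYL1 knockdown libraries above them.

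With AE knockdown, 5 of the 9 members were lower than in the controls and none was higher. These were FOSL2, FOSL1 and FOS of the FOS family, and ATF3 and BATF3. Over all tested genes 10.4% were called lower and 11.4% higher (edgeR's quasi-likelihood test, Benjamini-Hochberg adjusted p below 0.05). The median log2 fold change of the 9 members was -1.50, beside 0.05 over all genes. In these 5 members every AE knockdown library lay below every control, which held in 22.2% of all genes. In these bulk libraries, fewer expressing cells and less RNA per cell cannot be told apart.

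FOSL2 (FRA2), a FOS protein that lacks a strong transactivation domain, was the most abundant FOS-family transcript. It lay at 94.5, 90.3 and 82.5 CPM in controls and 25.8, 38.7 and 28.9 CPM in AE knockdown replicates 1 to 3. The groups were far apart, with the highest AE knockdown library below the lowest control. The fall was 2.86-fold (log2 fold change -1.52, SE 0.16, 95% interval -1.87 to -1.17, adjusted p = 0.00103), rank 15 of all genes by p.

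FOSL1 (FRA1), known as a target of sustained kinase signalling, lay at 10.3, 10.4 and 7.59 CPM in the controls. The AE knockdown libraries held 2.54, 2.39 and 1.35 CPM, with replicate 3 lowest and no overlap. The fall was 4.43-fold (log2 fold change -2.15, SE 0.34, adjusted p = 0.00384). FOSL1 and FOSL2 were called in each of the 19 other settings run for this comparison.

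FOS, the prototype immediate early member, lay at 1.54, 2.07 and 1.22 CPM in controls and 0.572, 0.563 and 0.577 CPM with AE knockdown. The 3 knockdown values were nearly equal, though they rest on 16, 16 and 12 counts. The log2 fold change was -1.50 (SE 0.37, adjusted p = 0.0188). It did not pass when control replicate 1 (adjusted p = 0.058) or control replicate 2 (0.0851) was left out, or with limma-voom given a spread per group (0.077).

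FOSB, another immediate early member, showed no called difference. It lay at 0.809, 1.88 and 1.38 CPM in controls and 1.68, 1.55 and 0.913 CPM with AE knockdown. The ranges overlapped, and the log2 fold change of 0.04 had a 95% interval of -1.13 to 1.21. A fall or a rise within that interval could not be told from no difference with these libraries.

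In the JUN family no member was called with AE knockdown. JUN, the prototype subunit, lay at 2.59, 2.49 and 2.43 CPM in controls and 0.679, 2.89 and 1.15 CPM in AE knockdown replicates 1 to 3. Replicates 1 and 3 lay below all controls and replicate 2 above them (log2 fold change -0.65, SE 0.41, adjusted p = 0.277). Without replicate 2 JUN was called lower (log2 fold change -1.49, adjusted p = 0.009).

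JUNB, which often restrains JUN, lay at 23.5 to 28.4 CPM in the controls and 22.6 to 36.4 CPM with AE knockdown (log2 fold change 0.19, SE 0.21, adjusted p = 0.544). JUNB shares 259 exon bases, 14.2% of its exon length in GENCODE v29, with HOOK2 on the opposite strand, and the strand setting of the counting is not given in the sources used here. JUND lay at 38.6, 43.4 and 37.1 CPM in controls and 61.0, 73.2 and 40.0 CPM with AE knockdown. Replicates 1 and 2 were above all controls and replicate 3 was within their range (log2 fold change 0.55, SE 0.20, adjusted p = 0.074). Without replicate 3 JUND was called higher (log2 fold change 0.74, adjusted p = 0.00776).

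ATF3 and BATF3, the members outside the FOS and JUN families, were both lower with AE knockdown. ATF3 lay at 6.15, 6.55 and 8.94 CPM in controls and 1.93, 3.59 and 0.144 CPM in AE knockdown replicates 1 to 3. Replicate 3 stood far below the others with 3 counts, whose exact Poisson 95% interval is 0.0297 to 0.421 CPM and covers counting error only. The log2 fold change was -1.87 (SE 0.54, adjusted p = 0.0344), and it was -2.68 without replicate 2 and -1.39 without replicate 3. The call was lost in 9 of the 19 settings run, including without any 1 control, with adjusted p values of 0.0784, 0.0854 and 0.112.

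BATF3 was scarce, with 23 to 38 counts per library in the controls. It lay at 1.54, 1.43 and 0.965 CPM in controls and 0.536, 0.528 and 0.0481 CPM with AE knockdown, from 15, 15 and 1 counts. Only replicate 3 of the AE knockdown was close to the limit of detection. The log2 fold change was -1.72 (SE 0.49, adjusted p = 0.0308). Again the library with the lowest RUNX1T1, replicate 3, was lowest, as it was for FOSL1 and ATF3, but not for FOSL2, FOS, JUN or JUNB. Replicate 3 was also lowest for FOSB and JUND, which were not called. For JUND it lay within the control range, with replicates 1 and 2 above all controls. The BATF3 call was lost in 7 of 18 settings, among them without any 1 control (adjusted p = 0.102, 0.0985 and 0.0599) and without AE knockdown replicate 3 (0.0504).

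**Figure D2:**
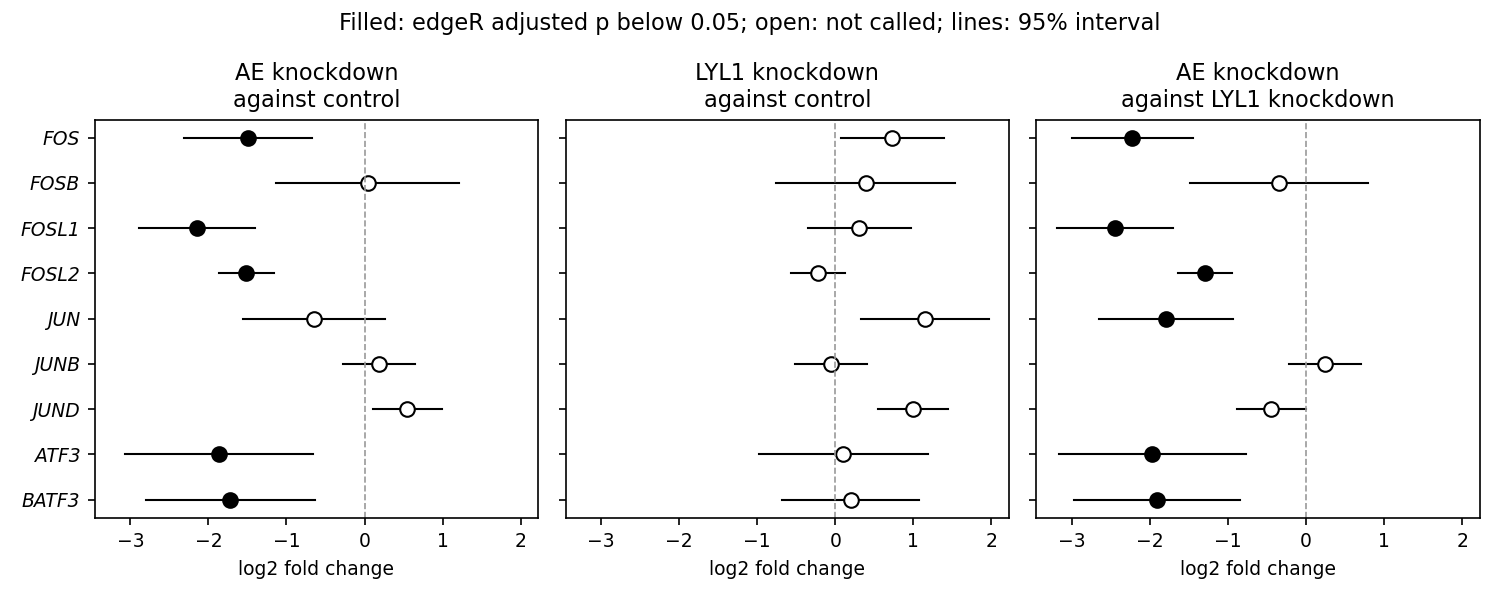
Log2 fold change of each subunit (points) with its 95% interval (lines) in the 3 comparisons, filled where the adjusted p is below 0.05. FOS, FOSL1, FOSL2, ATF3 and BATF3 lie below 0 with AE knockdown, from -2.15 to -1.50, and no member is filled with LYL1 knockdown.

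With LYL1 knockdown, JUN and JUND lay above the controls in all 3 libraries, but no member passed the test over all genes. The background of calls was itself small, at 0.0136% of tested genes. At an unadjusted p below 0.05 the count was 3 of 9 members (FOS, JUN and JUND), beside 4.82% of all genes. The median log2 fold change of the members was 0.31, beside 0.005 over all genes.

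JUND lay at 89.1, 67.9 and 80.2 CPM with shRNAs 538, 540 and 542, against 37.1 to 43.4 CPM in the controls. Even the lowest knockdown library stood well above the highest control. The ratio was 1.99-fold (log2 fold change 0.99, SE 0.20, 95% interval 0.54 to 1.44, edgeR adjusted p = 0.337, rank 20 of all genes by p). JUND was called by DESeq2 (adjusted p = 0.0247), by limma-voom with a spread per group (0.0226), in a fit of only the 6 libraries compared (0.0201) and without AE knockdown replicate 3 (0.022). The share of all genes with every LYL1 knockdown library above every control was 8.41%.

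JUN lay at 5.87, 4.68 and 6.13 CPM with LYL1 knockdown, against 2.43 to 2.59 CPM in the controls. The groups did not overlap, and the log2 difference was 1.15 (SE 0.37, unadjusted p = 0.0104, adjusted p = 0.813 in edgeR). FOS lay at 2.91, 1.78 and 3.44 CPM, overlapping the controls only through shRNA 540 (log2 difference 0.73, SE 0.30, edgeR adjusted p = 1). FOSL2 lay slightly below all controls, at 79.5, 74.2 and 75.3 CPM (log2 difference -0.22, SE 0.15, edgeR adjusted p = 1), an order found in 8.17% of all genes.

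The other members overlapped the controls. FOSL1 lay at 11.4, 7.19 and 16.6 CPM, ATF3 at 8.78, 8.16 and 6.18 CPM and BATF3 at 1.84, 1.01 and 1.69 CPM with shRNAs 538, 540 and 542. JUNB lay at 31.8, 23.9 and 20.3 CPM. FOSB was the most scattered, at 3.30, 0.657 and 1.35 CPM, with shRNA 538 above and shRNA 540 below all controls.

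The direct contrast of the knockdowns asked in which members they differ. It uses the same AE libraries as the comparison with the controls, and both fits share 1 estimate of spread. FOS, FOSL1, FOSL2, JUN, ATF3 and BATF3 were lower with AE knockdown than with LYL1 knockdown, 6 of 9 members, beside 9.70% of all genes called lower and 10.7% called higher. In all 6 the groups did not overlap, which held in this direction for 17.2% of all genes. FOSL1 differed 5.48-fold (log2 difference -2.45, SE 0.34, edgeR adjusted p = 0.00273), FOS 4.68-fold (adjusted p = 0.00392) and FOSL2 2.45-fold (adjusted p = 0.00206). JUN differed 3.46-fold (log2 difference -1.79, SE 0.39, edgeR adjusted p = 0.0119), and its highest AE knockdown library, at 2.89 CPM, lay below its lowest LYL1 knockdown library, at 4.68 CPM. The JUN difference was -2.63 without AE knockdown replicate 2 and -1.42 without replicate 1. Its call was lost in the fit of only the 6 libraries compared (adjusted p = 0.0516).

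ATF3 and BATF3 differed 3.92-fold and 3.77-fold (edgeR adjusted p = 0.0298 and 0.021), and these calls were lost in 9 and 4 of the settings. The log2 difference of ATF3, -1.97, was -2.78 without AE knockdown replicate 2 and -1.49 without replicate 3. JUND lay lower with AE than with LYL1 knockdown in the means (58.1 and 79.1 CPM), but replicate 2 overlapped (log2 difference -0.44, SE 0.20, adjusted p = 0.138). Without that replicate the difference was called (-0.64, adjusted p = 0.0364). JUNB (log2 difference 0.24) and FOSB (-0.34) were not called.

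**Figure D3:**
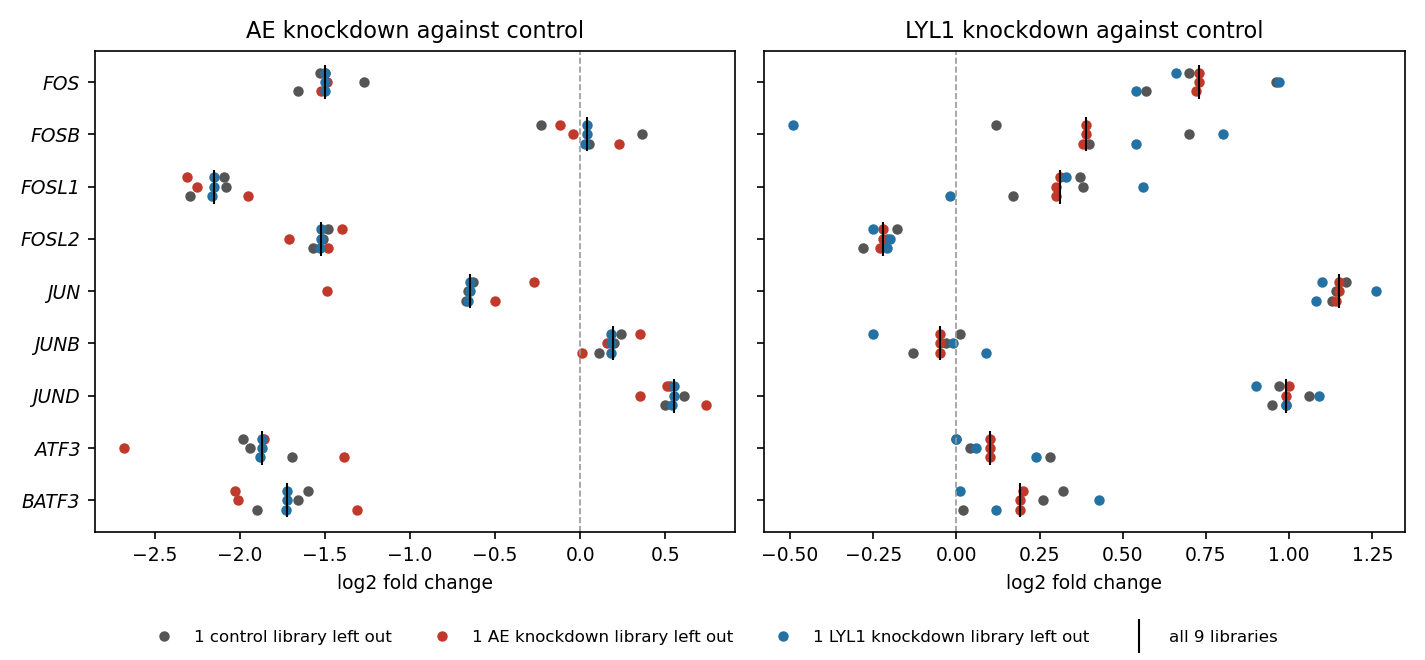
Log2 fold change of each member with AE (left) and LYL1 knockdown (right) against control, in the fit of all 9 libraries (vertical line) and with 1 library left out (points, coloured by the group of that library). With AE knockdown JUN moves to -1.49 without replicate 2 and ATF3 to -2.68, and FOSL1 and FOSL2 stay near their full values.

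The make-up of the family differed between the groups on the scale of summed CPM per kilobase. The FOS family held 33.0%, 31.8% and 30.9% of the summed level of the 9 members in the controls, and 10.5%, 10.9% and 10.9% with AE knockdown. It held 21.1%, 21.8% and 26.2% with shRNAs 538, 540 and 542, between the other groups and without overlap. Its summed level with LYL1 knockdown, given below, was close to that of the controls. The JUN family held 64.0%, 88.2% and 73.8% in the mean of the control, AE knockdown and LYL1 knockdown libraries, and ATF3 with BATF3 held 4.02%, 1.03% and 3.16%. These shares follow from the levels given above and were not tested.

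The total behaved differently from the shares. It was 56.9 ± 4.10 CPM per kilobase in the controls and 54.6 ± 9.48 with AE knockdown (SD, n = 3), with overlapping ranges. With LYL1 knockdown it was 78.4 ± 10.2, from 68.1 to 88.4, above all controls. In the AE knockdown libraries the FOS family summed to 5.88 ± 1.08 CPM per kilobase, against 18.2 ± 1.73 in the controls. JUND formed 58.4% of the JUN family in the controls, 64.2% with AE knockdown and 73.3% with LYL1 knockdown. Within the FOS family FOSL2 stayed the main transcript, at 68.6%, 73.8% and 60.1%. Protein and dimers were not measured.

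**Figure D4:**
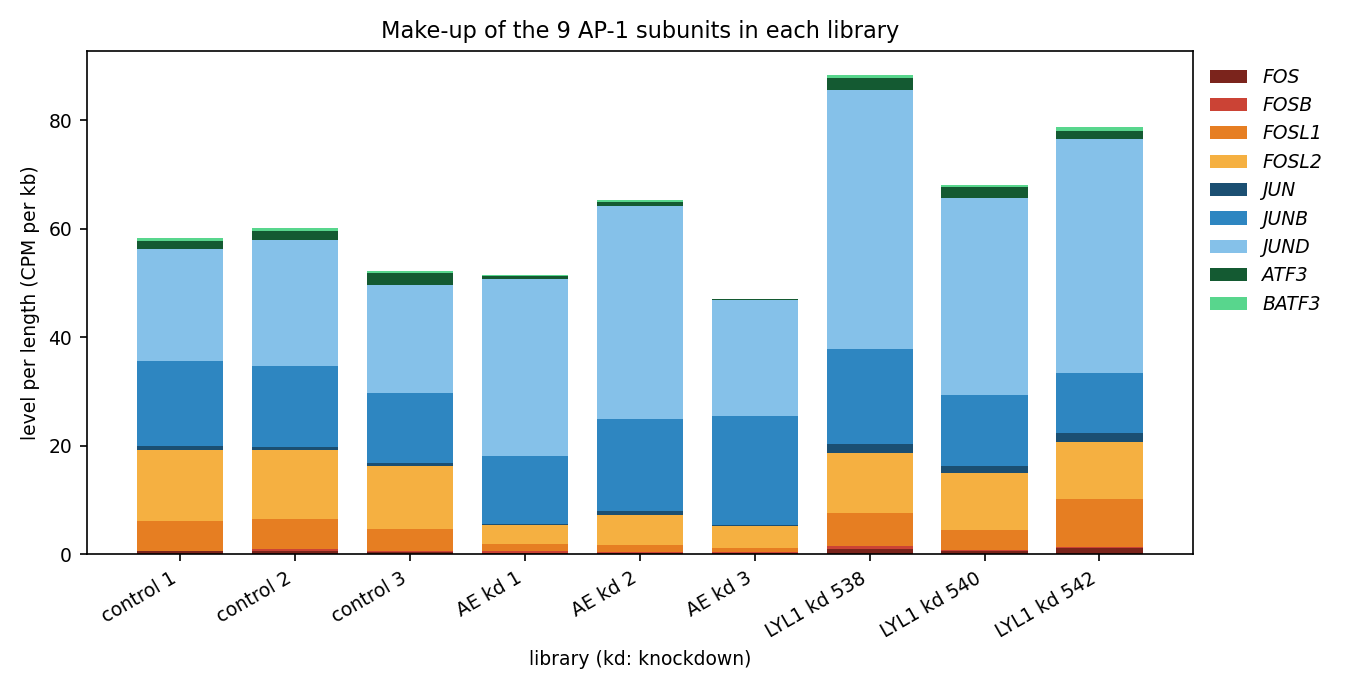
Summed CPM per kilobase of the 9 subunits in each library, stacked by gene (FOS family in reds and oranges, JUN family in blues, ATF3 and BATF3 in greens). The FOS-family segments sum to 16.2 to 19.3 in the controls and 5.10 to 7.12 with AE knockdown, and the JUN-family segments to 50.9 to 67.0 with LYL1 knockdown.

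Across the 9 libraries, the log2 CPM of FOS, FOSL1, FOSL2, JUN, ATF3 and BATF3 moved alike, with Pearson's r from 0.673 (JUN with ATF3) to 0.942 (FOS with FOSL1) over their 15 pairs. The libraries fall into 3 groups, so such values mainly restate the group differences and are given as a description. JUND had r of -0.069 with FOSL2 and 0.523 with JUN, JUNB had r between -0.518 and 0.098 with every other member, and FOSB had at most 0.420.

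The genes whose pattern was most like that of a member were taken from tested genes averaging 2 or more in log2 CPM, over the same 9 libraries. For FOSL2 they were FLT1 (r = 0.987), a receptor of vascular endothelial growth factor, CKB (0.985), the brain-type creatine kinase, and IER5L (0.984). FLT1 averaged 25.7 CPM in the controls, 0.216 with AE knockdown and 24.3 with LYL1 knockdown. For FOSL1 they were UBE2L3, TBL1X and EIF4G3 (r of 0.991 to 0.993), for ATF3 IPO11, HOMER1 and PSMD1 (0.995 to 0.997), and for BATF3 ATXN2L, CALHM2 and PGBD4P1 (0.989 to 0.994). For FOS they were PEX14, TRERF1 and TFG (0.974 to 0.987). JUND was closest to NF2 (0.955), a tumour suppressor of the cell cortex, MPDU1 (0.955) and MDM2 (0.949), the ubiquitin ligase of p53, which averaged 39.9, 48.9 and 66.8 CPM in the control, AE and LYL1 knockdown libraries. JUN was closest to AC092718.4, SNX25 and KIF3B (0.950 to 0.972), JUNB to LIPE, GET1 and ST14 (0.901 to 0.907) and FOSB to CCDC51, GRSF1 and FAM207A (0.827 to 0.945).

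The further genes of the AP-1 network are given by 7 lists, each read against the background of 11.4% of genes called higher and 10.4% called lower with AE knockdown, and a median log2 fold change of 0.05. The lists were not tested as sets.

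Other leucine zipper factors can pair with AP-1 proteins or compete for their sites. Of 21 tested, 1 was called higher and 2 lower with AE knockdown (median log2 fold change -0.06). The counts were 3 higher and 5 lower without AE knockdown replicate 2, 1 and 5 by DESeq2, and 2 and 3 with the strict filter of 50 counts. MAFF, a small MAF protein, lay at 3.15, 3.31 and 2.98 CPM in controls and 1.04, 0.774 and 1.11 CPM with AE knockdown (log2 fold change -1.71, SE 0.29, edgeR adjusted p = 0.00507). ATF5, at 93.0, 93.8 and 94.3 CPM in the controls, fell to 55.0, 53.2 and 26.9 CPM (log2 fold change -1.05, adjusted p = 0.0107). NFIL3 was called higher (log2 fold change 1.32, adjusted p = 0.0476), a call lost in 7 of the 9 fits that leave out a library, and its value was 0.66 without AE knockdown replicate 3.

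Among kinases of the mitogen-activated cascade, which phosphorylate AP-1 proteins and their upstream factors, 2 of 20 were called higher and 4 lower with AE knockdown (median -0.18). RPS6KA1, the kinase RSK1, lay at 11.5 to 18.1 CPM in controls and 55.3, 40.7 and 135 CPM with AE knockdown (log2 fold change 2.39, edgeR adjusted p = 0.00525, and 1.69 without replicate 3). MAP3K1, RPS6KA5 (MSK1) and RPS6KA3 (RSK2) were lower, at log2 fold changes of -0.91, -0.95 and -0.80, and were called in all 9 fits that leave out a library. Of 12 factors that bind immediate early promoters none was higher and 4 were lower (median -0.34). ELK3, a partner of SRF, lay at 82.4 to 85.2 CPM in the controls and 27.8 to 38.6 CPM with AE knockdown (log2 fold change -1.31, edgeR adjusted p = 0.00308). STAT3, MEF2A and MEF2C were lower too, but without any 1 control only 1 of the 12 factors was called.

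Among 11 regulators of AP-1 protein turnover, 2 were called higher with AE knockdown, and 3 by DESeq2 or without AE knockdown replicate 1 (median -0.03). COP1, a ubiquitin ligase for JUN, lay at 48.2, 51.0 and 49.0 CPM in controls and 74.8, 70.4 and 86.5 CPM with AE knockdown (log2 fold change 0.64, edgeR adjusted p = 0.00775). USP28, a deubiquitinase that opposes FBXW7, was higher (0.73, adjusted p = 0.00892; 0.0507 with control replicate 2 left out).

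Of 32 genes described as AP-1 targets 17 were tested, and with AE knockdown 3 were called higher and 3 lower (median -0.27). Of the higher genes VIM, named here for its spread, averaged 3.93 CPM with AE knockdown, below its SD of 6.38. It averaged 0.0135 CPM in the controls (edgeR adjusted p = 0.0459). CXCL8, the neutrophil chemokine, lay at 1.29 to 1.81 CPM in controls and 4.90, 3.73 and 5.82 CPM with AE knockdown (log2 fold change 1.56, edgeR adjusted p = 0.006). It lay at 5.79, 5.41 and 8.42 CPM with LYL1 knockdown, a log2 difference of 2.00 from the controls (SE 0.28, edgeR adjusted p = 0.0587). That difference was called in 7 of 18 other settings, among them DESeq2 (adjusted p = 1.49e-07), the fit of 6 libraries (0.0201) and the fits without AE knockdown replicate 2 (0.0435) or 3 (0.0174). CCND2, a D-type cyclin (log2 fold change -1.09), EZR, a membrane-cytoskeleton linker (-0.58), and CD44, a hyaluronan receptor (-0.72), were lower, with edgeR adjusted p of 0.00956, 0.0106 and 0.0151. Leaving out control replicate 2 ended the EZR call (adjusted p = 0.055), and leaving out control replicate 1 or 2 that of CD44. Without control replicates 1, 2 and 3 in turn the list had 1, 1 and 1 higher and 2, 1 and 4 lower genes.

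Of 25 other immediate early genes 17 were tested, with 2 higher and 4 lower after AE knockdown (median -0.25). ARC lay at 0.445, 0.753 and 0.629 CPM in controls and 0.0715, 0.106 and 0 CPM with AE knockdown, where the 0 counts of replicate 3 allow up to 0.144 CPM (3 counts; log2 fold change -3.15, edgeR adjusted p = 0.0105). ZFP36, which destabilises mRNA (log2 fold change -0.57), and NR4A1, an orphan nuclear receptor (-1.55), were lower, and BTG2 was higher from very low counts (0.0809 to 0.113 CPM in the controls and 0.464 to 0.739 CPM with AE knockdown). NR4A1 was called in 4 of the 9 fits that leave out a library, and ZFP36 and BTG2 in 7. Without a control replicate this list had 1 or 2 calls. Of 13 stress response genes around ATF3, none was higher and 3 were lower, namely ASNS, SESN2 and EIF2AK2 (log2 fold changes -1.60, -1.09 and -0.53, median of the list -0.39), and none was called without any 1 control or without AE knockdown replicate 3. With replicate 2 of the AE knockdown left out, the stress list had 6 lower and 1 higher.

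With LYL1 knockdown edgeR called none of the 106 distinct genes tested from these 7 lists, and 7 had an unadjusted p below 0.05, beside 4.82% of all genes. CXCL8 was the 1 gene of them called in any other setting, DESeq2 included. The medians of the lists ran from -0.10 to 0.17. Between the knockdowns, the AP-1 targets had 5 of 17 lower with AE knockdown and none higher, and the other immediate early genes 5 lower and 1 higher, beside 9.70% lower and 10.7% higher over all genes. The targets had 1 lower without the library of shRNA 542 and in the fit of 6 libraries, and 3 without shRNA 538 or any 1 control. The immediate early genes had 3 lower and none higher without shRNA 538 and in the fit of 6 libraries. DUSP1, a phosphatase that switches off the kinases and was chosen here after its values were seen, lay at 5.91 to 6.11 CPM in the controls, 3.18, 4.15 and 3.27 CPM with AE knockdown and 9.13, 6.26 and 9.27 CPM with LYL1 knockdown (log2 difference between the knockdowns -1.21, edgeR adjusted p = 0.00607).

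The neighbours of the members on the chromosome were read from the same fit. The RefSeq gene table (GRCh38, used for gene order only) gave 28 distinct flanking genes, of which 23 were in the files and 15 were tested. With AE knockdown 3 of these were higher and 2 lower, beside 11.4% and 10.4% of all genes. The counts were 1 and 1 without control replicate 1, and 1 and 0 without control replicate 2 or 3. With LYL1 knockdown edgeR called none, DESeq2 called none, and none had an unadjusted p below 0.05. PLB1, a phospholipase gene beside FOSL2, lay at 4.21, 4.67 and 4.15 CPM in controls and 32.6, 10.8 and 107 CPM with AE knockdown, opposite to FOSL2 in all 3 libraries (log2 fold change 3.52, SE 0.67, edgeR adjusted p = 0.00814, and 2.30 without replicate 3). BABAM2, on the other side of FOSL2, was lower (-0.54, adjusted p = 0.0203; lost without any 1 control). Beside FOSL1, CCDC85B was lower (-0.62, adjusted p = 0.0179; lost without control replicate 2 or 3). NENF beside ATF3 (0.95, adjusted p = 0.0165) and IQCN beside JUND (1.66, adjusted p = 0.0349) were higher, and both calls were lost without any 1 control.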

How the data were processed

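Each deposited file holds whole-number read counts per gene symbol for 1 library, with no normalisation by the authors. Per the submitters' processing notes, the build was hg19 and the tools were featureCounts 2.0.1, HISAT2 2.2.0, fastp 0.20.1, DESeq2 1.26.0 and SAMtools 1.7, with no role or order given. The annotation is not given in the sources used here. A trailing suffix was removed from 5 gene names. Counts were scaled with TMM factors, filtered with filterByExpr by group and tested with edgeR 4.0.16 in R 4.3.3, by quasi-likelihood F tests in 1 group-means model of all 9 libraries, robust, with Benjamini-Hochberg adjustment over 14741 genes and calls at an adjusted p below 0.05. Intervals are 95%, and the standard error is the log2 fold change divided by the square root of F. CPM per kilobase uses GENCODE v29 exon lengths (GRCh38). Alternatives were other scalings and filters, DESeq2 1.42.0, limma-voom (limma 3.58.1), fits of 6 libraries, omission of each library and a replicate block. A limma-voom fit with 1 spread for each group was chosen after seeing the data. The members and lists were chosen with earlier results of these data known.

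Named genes are the members, up to 4 called genes per list with the smallest adjusted p against control, the 3 closest patterns per member, called flanking genes and the knockdown targets. On counts simulated for AE knockdown against control (14486 genes), 48.5% of 2-fold and 86.9% of 4-fold changes were called, with 11 of 14288 unchanged genes. All groups were simulated with the same spread for a gene, whereas the groups here differ in spread. The shares called therefore hold for equal spread only. A result of the protein turnover list is not reported here. No pair of replicates agreed within sampling noise.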

Additional observations from a re-analysis of the deposited data

How the results depend on the processing

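Over the members, 438 of 489 values from other settings kept their direction and side of the threshold, 33 lost a call, 7 gained one and 11 turned direction. With AE knockdown 3214 genes and 5 members were called. Leaving out a library gave 957 to 4267 genes and 2 to 6 members, with 2 members without control replicate 1 or 2 and 3 without control replicate 3. limma-voom with a spread per group and the fit of 6 libraries each called 3 members. With LYL1 knockdown 2 genes and 0 members were called. Library size only gave 5 genes, no filter 8, the strict filter of 50 counts 1, DESeq2 26, limma-voom with a spread per group 26 and 6 libraries 15, and the last 3 each called 1 member, JUND. Leaving out a library gave 1 to 11 genes and 0 to 1 members. Between the knockdowns 3003 genes and 6 members were called, against 1711 genes with a spread per group, 941 genes and 3 members in 6 libraries, and 1460 to 4007 genes and 4 to 7 members without a library.

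The labels do not say whether the replicate numbers shared by control and AE knockdown pair the libraries. The correlations of same-numbered deviations were 0.042, -0.013 and 0.007, and AE knockdown replicate 2 correlated best with control replicate 3 (0.032). These values cannot decide the question, because the spread was 7.57% in the controls and 31.5% with AE knockdown. With the replicate block 1629 genes and 3 members were called.

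Directions that turned belonged to uncalled members. FOSB with AE knockdown was -0.01 by DESeq2 and ran from -0.23 to 0.36 without a library. With LYL1 knockdown FOSB ran from -0.49 to 0.80, JUNB from -0.25 to 0.09, ATF3 from 0.00 to 0.28 and FOSL1 from -0.02 to 0.56, and between the knockdowns FOSB ran from -0.76 to 0.53. FOS, JUN, FOSB and BATF3 had counts at or under 153 in every library. The cause of the lost calls was not tested.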

Other observations

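FOSB and EGR1, an immediate early zinc finger factor chosen here after its values were seen, were both highest in the LYL1 knockdown library with shRNA 538. EGR1 lay at 10.5, 8.62 and 8.98 CPM in the controls, at 1.11, 5.67 and 0.913 CPM in AE knockdown replicates 1 to 3, and at 22.2, 6.88 and 9.77 CPM with shRNAs 538, 540 and 542. FOSB was at 3.30 CPM in the library with shRNA 538 and at 0.657 and 1.35 CPM with the others. Of the AE knockdown libraries, replicate 2 kept the most EGR1, as it did JUN (2.89 CPM) and ATF3 (3.59 CPM). EGR1 was not called with AE knockdown against control (log2 fold change -1.83, SE 0.62, edgeR adjusted p = 0.0595).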
